A study of Mus musculus with 9 samples.

Results

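The 10 genes described here (Nfkbia, Tnfaip3, Nfkb1, Rela, Zfp36, Il1r1, Il1r2, Cxcl1, Il11 and Lif) encode inhibitors and subunits of NF-kB, a messenger RNA decay factor (Zfp36), interleukin-1 receptors, and a chemokine and 2 cytokines of inflammation. They were taken as a named list, 10 of the 21887 protein-coding genes of the mouse table used, and each was examined over its span with 50 kb to each side in build mm10. What was measured was where the glucocorticoid receptor (GR), which binds corticosterone and then DNA, sat on chromatin, by chromatin immunoprecipitation with sequencing (ChIP-seq). The cells were granulosa cells, which line the ovarian follicle and surround the oocyte, released by puncturing the ovaries of wild-type CBA x C57BL/6 F1 mice aged 21 days. Equine chorionic gonadotropin (eCG, labelled PMSG), which makes follicles grow, was given at 5 IU to every mouse, controls included. At 44 h the 0 h group was killed, and the 6 h group was given human chorionic gonadotropin (hCG) at 5 IU, in place of the LH surge that starts ovulation, and was killed 6 h later. Each time had 2 GR libraries with a peak list, and 1 further library at 0 h measured H3K27ac, an acetylated form of histone H3 found at promoters and enhancers in use. No GR library at 6 h came from mice without hCG, so an effect of hCG cannot be told apart from that of time or of the injection. The replicate numbers in the labels do not tell whether the mice or pools were separate, so a p-value over libraries covers the spread of these libraries, which may be technical.

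NF-kB is a dimer of Rel family proteins that waits in the cytoplasm, held by inhibitors such as IkB alpha, the product of Nfkbia. Interleukin-1, tumour necrosis factor and other signals lead to the destruction of the inhibitor, and the freed dimer enters the nucleus and switches on cytokine, chemokine and, as a brake, inhibitor genes. Glucocorticoids are known to restrain this pathway, in part because GR switches on brakes such as Nfkbia, Tnfaip3, Zfp36, Dusp1 and Tsc22d3, and ovulation is often described as a controlled inflammatory event of the follicle.

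At 0 h 10119 and 9728 GR peaks were deposited, at 6 h 14748 and 10588, and the H3K27ac list has 37460. Each list was called separately from its library. The depth of reads is unknown, and where a list has no peak the signal there may have been present and under the limit of the peak caller. An H3K27ac peak overlapped 10 of 10 granulosa cell markers (Foxl2, Fshr, Amh and others), 2 of 10 leukocyte markers (Itgam and Fcer1g, with Ptprc, Cd68, Csf1r and Adgre1 without), 2 of 6 endothelial, 3 of 5 theca and 1 of 6 oocyte markers. These counts are of peaks over the span of the gene, and the share of all genes with such a peak was not computed. Leukocytes also use several of the 10 genes.

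GR peaks lay near 9 of the 10 genes. The 4 lists together had 42 loci (peaks of any list that overlap by 1 bp or more, merged) in the 10 windows, and Nfkb1 had none. Over all protein-coding genes, 68.8% had a GR locus in their window. The median was 3.5 loci per gene for the 10 genes, from 0 to 12, and 2 for all genes. Of the 42 loci, 13 were called in all 4 libraries, 9 in both 6 h libraries and neither 0 h library (hereafter only at 6 h), 1 in both 0 h libraries and neither 6 h library (only at 0 h), and 19 in other sets. Over all 18584 loci of the series these classes made up 27%, 15.1% and 4.15%. Loci only at 6 h lay near 4 of the 10 genes (Il1r1, Lif, Zfp36 and Cxcl1), against 16.5% of all genes. For 3 of the 10 (Il1r1, Lif and Cxcl1), the member was the nearest gene of such a locus. Such loci also lay near 3 of the 10 leukocyte markers (Cd68, Itgam and Fcer1g), 2 of the 6 endothelial markers (Pecam1 and Cdh5), 3 of the 10 granulosa cell markers, 1 of the 5 theca markers and 1 of the 6 oocyte markers. The part of other cell types in the loci of the 10 genes was not tested. Loci in all 4 libraries lay near 5 (Zfp36, Il11, Nfkbia, Rela and Il1r1), against 45.5%, and the locus only at 0 h lay near 1 (Zfp36), against 6.78%. No test was made of these shares, because the genes were picked with earlier results of the series known.

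**Figure D1:**
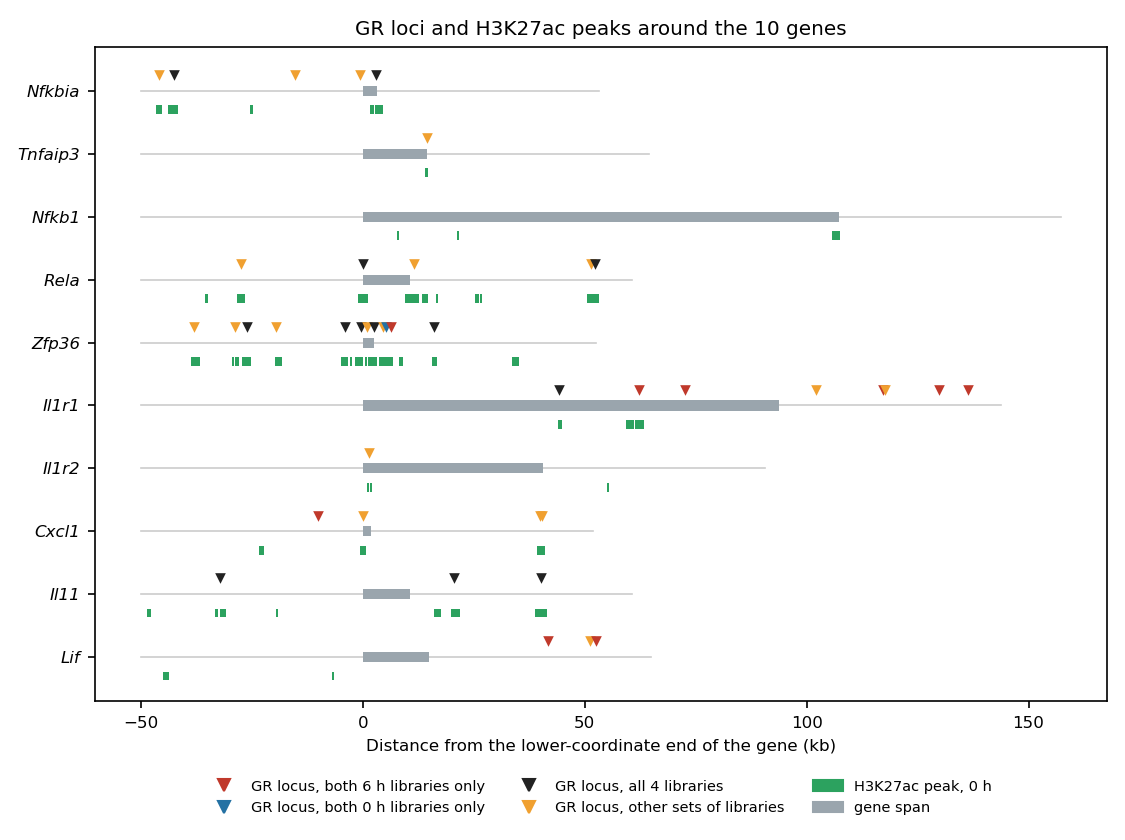
GR loci (triangles, coloured by the libraries that called them) and H3K27ac peaks at 0 h (green) around the 10 genes, with the x axis in kb from the end of the gene that has the lower coordinate and the grey line showing the window. Loci only at 6 h (red) lie inside and beyond Il1r1 and beyond Lif, the 12 loci of Zfp36 crowd around the gene, and Nfkb1 has H3K27ac peaks and no GR locus.

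The number of GR peaks in the windows was 23 and 20 in the 0 h libraries and 37 and 25 in the 6 h libraries. The means were 21.5 ± 2.12 at 0 h and 31 ± 8.49 at 6 h (SD, n = 2 each). The difference of 9.5 peaks had an exact permutation p of 0.333, two-sided, which is the smallest that 2 against 2 libraries can give. The first 6 h library, which has the longest list, called 10 of the 14 loci that a single library called, and without it the difference was 3.5 peaks. As a share of its list, each library had 0.227% and 0.206% of its peaks here at 0 h and 0.251% and 0.236% at 6 h. Gene by gene, the exact permutation p was 0.333 for Il1r1 (1 and 1 peaks at 0 h, 8 and 6 at 6 h) and for Lif (0 and 0, then 3 and 2), and 0.667 to 1 for the other 8. The genes were picked with earlier results of the series known, and no p here can fall below 0.333. The pooled and single-gene p-values are therefore descriptions and do not single out a gene.

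Chromatin that carried H3K27ac before hCG held 30 of the 42 loci (71.4%, 95% Wilson interval 56.4 to 82.8, which covers counting error only), against 74.4% of all loci. It held 13 of the 13 loci in all 4 libraries, and 98.4% of such loci over the genome did. It held 2 of the 9 loci only at 6 h (22.2%, 6.32 to 54.7), and 39.3% of such loci over the genome did. The 2 were an upstream locus of Zfp36 and a locus inside Il1r1. The other 7 lay inside Il1r1 (1 locus) or outside the genes, beyond Il1r1 and Lif and upstream of Cxcl1. Of the 9, 5 lay in the window of Il1r1 and 2 in that of Lif. The interval takes loci as independent, so it may be too narrow for loci that lie together. H3K27ac was measured at 0 h only, in 1 library. All 10 genes had an H3K27ac peak in the window, against 75.4% of all genes, and 28 of their 55 H3K27ac peaks held a GR peak, against 36.1% of all H3K27ac peaks.

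**Figure D2:**
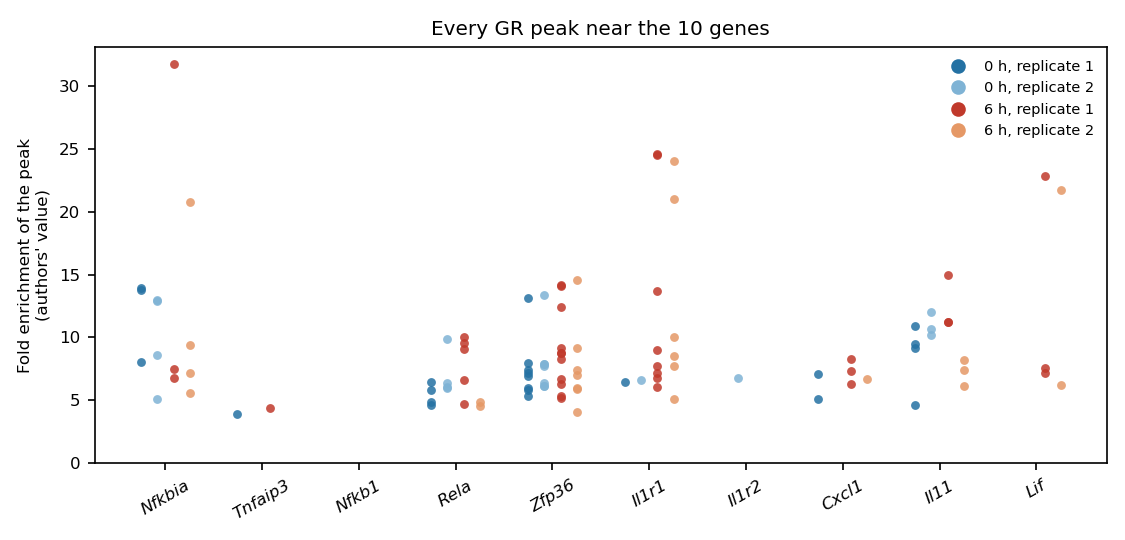
Fold enrichment of each of the 105 GR peaks near the 10 genes (y axis, the authors' value over the background the peak caller estimated), by gene and library. The highest values at Nfkbia, Il1r1 and Lif belong to the 6 h libraries, but values of different lists are on scales of their own and rank peaks within 1 list only.

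Start sites were known for 9 of the 10 genes, from RefSeq windows of 250 bases before to 50 after the site. A GR peak of at least 1 library overlapped such a window at 7 of the 9 (Nfkbia, Zfp36, Rela, Il1r1, Tnfaip3, Il1r2 and Cxcl1), against 40.3% of the 17492 genes with a window. Peaks of all 4 libraries did so at 4 (Nfkbia, Zfp36, Rela and the second start site of Il1r1), against 19.2%. The same 7 genes had H3K27ac over a window, against 45.8%, and Il11 and Lif had neither mark there.

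Nfkbia, on the minus strand of chromosome 12 (55489409 to 55492647), encodes the inhibitor IkB alpha and is itself switched on by NF-kB. GR was found at its start and inside it in both 0 h libraries and the second 6 h library, within 1 locus (55491552 to 55493000). The site inside the gene had its summit 737 and 705 bp after the start site at 0 h and 710 and 708 bp after it at 6 h, so the 4 summits lay close together. The authors' fold enrichment there was 13.9 and 12.9 at 0 h, then 31.7 and 20.8 at 6 h.

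The site at the start had its summit 101 and 118 bp after the start site at 0 h, with fold enrichments of 13.8 and 13. In the second 6 h library it lay 116 bp after it, with 9.39. The first 6 h library called a single peak across both sites, from 55491552 to 55492910, with its summit at the inner one. Within each list the order of the sites can be read. By the authors' p-value the start was ahead at 0 h, in the strongest 3.67% and 4.57% of peaks, with the inner site in the strongest 12.4% and 17.5%. By fold enrichment the sites were nearly level at 0 h, the inner one at 13.9 and 12.9 and the start at 13.8 and 13. At 6 h the inner site led, in the strongest 0.454% and 2.72%, and the start was in the strongest 11.7% of the second library. The leading summit of the locus by p-value thus lay at least 590 bp apart between the times and at most 17 bp apart within a time.

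A change of leading summit of that kind, at least 300 bp between the times and at most 100 bp within each, was found at 0.798% of the 5012 loci called in all 4 libraries. It was found at 2 of the 13 near these genes, in Nfkbia and Zfp36. The 2 limits were set after these loci had been seen, so the share is a description. The inner summits of Nfkbia lay in a gap of 261 bp between H3K27ac peaks.

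**Figure D3:**
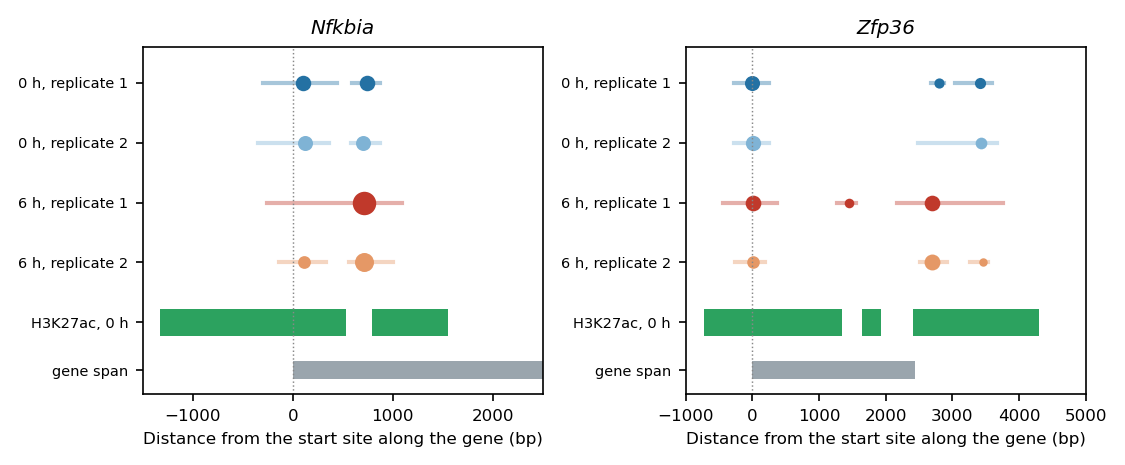
GR peaks (bars) and summits (points, with an area in proportion to the authors' fold enrichment) in each library at Nfkbia and Zfp36, with H3K27ac peaks at 0 h and the gene span, by distance in bp from the start site along the gene. At Nfkbia the 6 h points are largest 710 and 708 bp inside the gene, and beyond the end of Zfp36 the largest point moves from about 3423 bp at 0 h to about 2701 bp at 6 h.

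The other loci of Nfkbia were weaker. One, 42.3 kb beyond the end of the gene, was called in every library, at 8.08-fold and 8.63-fold at 0 h and 6.8-fold and 5.57-fold at 6 h. It lay nearer to Psma6 (28322 bp) than to Nfkbia. The other 3 were each called in 1 library, including a peak of the first 6 h library 446 bp beyond the gene (7.5) and a peak of the second 15.1 kb away (7.15). The upstream bases of 4 genes whose start windows held a GR peak (Nfkbia, Tnfaip3, Cxcl1 and Zfp36) are shown, to set the sequence next to their start sites side by side. They come from RefSeq (GRCm38.p6, the coordinates of mm10), run 5′ to 3′ on the strand of the gene and end at the base before its start site. Capitals mark matches to an NF-kB element (GGGANTTTC or GGGANTTCC, either strand) or an AP-1 element (TGANTCA). The Nfkbia bases are chr12:55492648-55492897 (minus strand), those of Tnfaip3 chr10:19015411-19015660 (minus), those of Cxcl1 chr5:90890995-90891244 (plus) and those of Zfp36 chr7:28379229-28379478 (minus).
Nfkbia: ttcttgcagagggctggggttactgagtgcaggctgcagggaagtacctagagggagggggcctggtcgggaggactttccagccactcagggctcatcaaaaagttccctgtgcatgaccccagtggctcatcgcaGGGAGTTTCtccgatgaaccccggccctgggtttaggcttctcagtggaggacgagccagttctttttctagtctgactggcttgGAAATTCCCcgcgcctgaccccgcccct
Tnfaip3: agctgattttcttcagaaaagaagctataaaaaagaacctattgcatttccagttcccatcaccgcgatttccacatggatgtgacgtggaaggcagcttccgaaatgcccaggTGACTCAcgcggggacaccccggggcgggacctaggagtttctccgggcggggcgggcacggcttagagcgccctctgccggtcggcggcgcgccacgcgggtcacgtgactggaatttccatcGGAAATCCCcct
Cxcl1: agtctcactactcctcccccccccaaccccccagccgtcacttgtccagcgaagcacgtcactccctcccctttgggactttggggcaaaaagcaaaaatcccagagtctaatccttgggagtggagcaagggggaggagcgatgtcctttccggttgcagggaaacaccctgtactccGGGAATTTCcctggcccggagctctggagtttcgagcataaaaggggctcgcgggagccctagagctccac
Zfp36: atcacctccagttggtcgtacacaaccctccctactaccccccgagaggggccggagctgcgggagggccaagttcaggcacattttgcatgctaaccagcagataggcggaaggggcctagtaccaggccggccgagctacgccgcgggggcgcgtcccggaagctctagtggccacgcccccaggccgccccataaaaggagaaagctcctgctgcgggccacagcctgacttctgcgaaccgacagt

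Counted from the start site, the NF-kB letters occurred at -113 to -105 and at -28 to -20 in Nfkbia (GGGAGTTTC, and GAAATTCCC as the reverse strand reads it). They occurred at -12 to -4 in Tnfaip3 (GGAAATCCC, reverse strand) and at -71 to -63 in Cxcl1 (GGGAATTTC). The GR peak at the start of Cxcl1 ran from 90891182 to 90891396, so it reached the last base of that match and left the rest outside. Of all 21263 start windows of protein-coding genes, 2.87% held 1 of these forms. AP-1 letters (6.99% of windows) occurred at Tnfaip3, Lif and the second start of Il11. A GR element (GNACANNNTGTNC, 0.442% of windows) and a cAMP response element (TGACGTCA, 2.23%) were searched on both strands too, and these letters were in no window of the 9 genes. No match overlapped another, and the sequence under the peaks outside these windows was not used here.

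Tnfaip3, on chromosome 10 (19000910 to 19015410), encodes A20, a ubiquitin-editing enzyme that shuts off signalling to NF-kB. It had 1 GR locus, at its first start site (19015134 to 19015593). The first 0 h library gave it a fold enrichment of 3.92 and the first 6 h library 4.36, and the second library of each time did not call it. Both values were among the weakest of their lists, at rank 9927 of 10116 and 13427 of 14746. The locus was not seen when each list was shortened to the length of the shortest. The single H3K27ac peak of the window, 386 bp wide, lay beside the start site and overlapped the locus.

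Zfp36, on the minus strand of chromosome 7 (28376784 to 28379228), encodes tristetraprolin, which binds AU-rich elements in cytokine messenger RNAs and speeds their decay. It had the most GR loci of the 10 genes, 12, all of them in H3K27ac peaks, of which its window held 16. Its 5 loci in all 4 libraries are a number that 1.02% of all genes reach. The window also spans other genes, 7 with Zfp36 counted, and for 5 of the 12 loci Zfp36 was the nearest gene. Among the loci in all 4 libraries, Zfp36 was the nearest gene of 2. The rest of these lay over the starts of Rps16, of Plekhg2, and of Med29 and Paf1.

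The locus at the start site of Zfp36 (28378856 to 28379666) had fold enrichments of 13.1 and 13.4 at 0 h and 14.2 and 9.13 at 6 h. Its summits lay within 16 bp of the start site in every library. By the authors' p-value it was among the strongest 3.55% and 3.98% of peaks at 0 h and 3.47% and 12.8% at 6 h. The start of Zfp36 was thus called in every library with its summits in 1 place.

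The locus at the other end of the gene (28375467 to 28377054) differed in that respect. Its leading summit lay 979 and 982 bp beyond the end of the gene at 0 h, with fold enrichments of 7.19 and 7.9. At 6 h it lay 257 and 253 bp beyond the end, with 14.1 and 14.6. The first 0 h library had a second, weaker peak (6.01) with its summit 354 bp beyond the end, and the second 6 h library a weaker one (4.11) at 1015 bp. The first 0 h and the second 6 h library thus called both positions as separate peaks, in opposite order of strength. The second 0 h library (28375559 to 28376739) and the first 6 h library (28375467 to 28377054) each called a single peak across both positions. For these libraries only the position of the summit differed, and the weaker position has no value of its own.

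Upstream of Zfp36, an H3K27ac peak of 3341 bp held 3 loci in a row. The nearest, with its summit 2168 bp before the start site, was called by the first 6 h library alone (8.75). The next, 2800 bp before it, was the locus only at 0 h (6.93 and 6.1). The last, about 4010 bp before it, was only at 6 h (8.31 and 6.98). It lay nearer to Med29 (1738 bp) than to Zfp36 (3700 bp). When peaks up to 500 bp apart were merged, the first 2 became 1 locus and no locus only at 0 h was left near the 10 genes.

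The subunit genes differed from each other. Rela, on chromosome 19 (5637442 to 5648134), encodes p65, the subunit that activates transcription. The locus at its start (5637149 to 5637964) was called in every library, at 6.42-fold and 9.87-fold at 0 h and 10-fold and 4.58-fold at 6 h. The summits lay at -218 and -38 bp from the start site at 0 h and at -19 and -254 bp at 6 h, so libraries of the same time differed in position as much as libraries of different times. The other 4 loci of the window included 1 in all 4 libraries inside the neighbour Map3k11 and 2 over the starts of Kat5 and of Pcnx3 and Map3k11, called in every library but the second of 6 h. The last was called by the first 6 h library alone (4.73), and no locus of Rela was in both libraries of one time and absent from both of the other.

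Nfkb1, on chromosome 3 (135584655 to 135691969), encodes p105, the precursor of p50, the partner of p65. It had no GR peak in any of the 4 lists. The nearest locus lay 145 kb from the gene, near Ube2d3, and was called in 1 library of each time. The window had 4 H3K27ac peaks, of 277 to 802 bp, all over the gene and 1 of them across the gene end with the higher coordinate.

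The receptor genes Il1r1 and Il1r2 are neighbours on chromosome 1. Il1r1 (40222480 to 40316201) encodes the receptor that passes the interleukin-1 signal on, and Il1r2 (40084692 to 40125230) a decoy that binds the ligand without a signal. Il1r1 spans 93722 bp, where the median over all genes was 17169 bp, so its window is longer than that of most genes. It had 8 loci, 5 of them only at 6 h, a number that 0.302% of all genes reach.

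Of those 5, the loci inside Il1r1 were the weaker ones. One (40284342 to 40285164) lay in H3K27ac and reached 6.06-fold and 8.52-fold in the 6 h libraries. The next (40294799 to 40295153) lay outside it and reached 6.77-fold and 7.75-fold.

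The strong loci lay beyond the gene, inside the next gene, Il1rl2, which encodes the receptor of interleukin-36. The first (40339383 to 40339806) was 23.2 kb beyond Il1r1, with fold enrichments of 24.6 and 24 and a place in the strongest 1.77% and 1.95% of peaks. The second (40352011 to 40352528), at 35.8 kb, had 13.7 and 10. The last (40358687 to 40359211), at 42.5 kb, had 24.5 and 21 and was in the strongest 2.05% and 2.84%. Neither 0 h library had a peak there, and these 3 loci lay in a stretch of 83078 bp without H3K27ac at 0 h. Taken by the nearest gene, 2 of the 5 loci belong to Il1r1.

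The locus of Il1r1 called in all 4 libraries lay at its second start site (40266543 to 40266923), the only one with H3K27ac. Its fold enrichments were 6.46 and 6.6 at 0 h and 7.15 and 5.12 at 6 h, in the weaker part of each list. The first start site had neither GR nor H3K27ac.

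Il1r2 had 1 locus (40085910 to 40086132), called by the second 0 h library alone with a fold enrichment of 6.8. Its summit lay at -78 bp from the start site, between 2 short H3K27ac peaks of 393 and 345 bp. Neither 6 h library called a peak in the window of Il1r2.

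Among the ligand genes, Cxcl1 on chromosome 5 (90891245 to 90893121) encodes a chemokine that attracts neutrophils. It had 1 locus only at 6 h (90880749 to 90881282), 9.96 kb upstream of the gene and away from H3K27ac, at 8.3-fold and 6.68-fold. Its places were the strongest 49.4% and 68.8% of peaks. The start site lay in an H3K27ac peak of 1182 bp, and the first 0 h library alone had a GR peak there, with 5.09. The other 2 loci lay over Mthfd2l, the gene of a mitochondrial folate enzyme.

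Lif, on chromosome 11 (4257568 to 4272514), encodes leukaemia inhibitory factor, a cytokine of the interleukin-6 family. Its 3 loci were called in 6 h libraries alone and lay beyond the end of the gene. The strongest (4309704 to 4310276), 37.2 kb beyond, reached 22.8-fold and 21.7-fold at 6 h, among the strongest 2.77% and 2.79% of peaks, and none at 0 h. It lay between Lif and Hormad2 and was slightly nearer to Hormad2, at 35525 bp. Another only at 6 h (4298965 to 4299527), 26.5 kb beyond Lif, had 7.15 and 6.2, and the last was called by the first 6 h library alone (7.56). None of the 3 lay in H3K27ac, and neither did the start of Lif.

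Il11, on chromosome 7 (4772373 to 4782907), encodes another cytokine of the interleukin-6 family. Its window held 10 genes, itself included, and its 3 loci were all called in all 4 libraries and in H3K27ac. They lay over the starts of Kmt5c, Rpl28 and Ube2s, so none had Il11 as the nearest gene. The strongest in the first 6 h library, over Rpl28 and 9.57 kb from Il11, had fold enrichments of 10.9 and 12 at 0 h and 15 and 8.19 at 6 h. Neither start site of Il11 had GR or H3K27ac.

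Within a list, the strongest peaks in the windows of the genes could be put in order. Such a peak could lie over a neighbour, as those of Il11 in every list and of Il1r1 at 6 h did. In the first 6 h list they ran Nfkbia (rank 67 of 14746), Il1r1 (261), Lif (409), Zfp36 (512), Il11 (1105), Rela (2435), Cxcl1 (7280) and Tnfaip3 (13427). In the second 6 h list they ran Il1r1 (206 of 10588), Nfkbia (288), Lif (295), Zfp36 (445), Il11 (3408), Rela (7139) and Cxcl1 (7281). The first 4 were the same genes in both lists. In the 0 h lists Zfp36 (359 of 10116 and 387 of 9726) and Nfkbia (371 and 444) led, Il11 (1268 and 1276) followed, and Lif and Nfkb1 had no peak. Tnfaip3 and Cxcl1 had none in the second 0 h list, and Il1r2 had none in the first.

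A wider list of 72 genes of NF-kB, interleukin-1, tumour necrosis factor, interleukin-6 family and chemokine signalling, also written with earlier results known, gave the setting. Of the 72, 60 had a GR locus in their window, 23 a locus only at 6 h, 4 a locus only at 0 h and 39 a locus in all 4 libraries. The shares of all genes were, in that order, 68.8%, 16.5%, 6.78% and 45.5%. Il1rl2 and Il1rl1, next to Il1r1, and Cxcl2, next to Cxcl1, were counted through loci already given. Among negative regulators and mRNA decay factors, 6 of 14 had a locus only at 6 h.

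Tsc22d3, which encodes the glucocorticoid-induced leucine zipper, had 4 of them, the nearest 1471 bp from the gene with fold enrichments of 16.9 and 20.2. Tnip1, a partner of A20, had 2, the nearest inside the gene with 10.6 and 8.4. Dusp1, a phosphatase that switches off MAP kinases, had 1 with 8.97 and 8.31, and Otulin, which removes linear ubiquitin, had 1 with 5.83 and 6.51. Of the 14 genes, 0 had a locus only at 0 h (6.78% of all genes did) and 9 had one in all 4 libraries (45.5%).

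Among other NF-kB subunits and inhibitors, 3 of 9 had a locus only at 6 h, the nearest at Nfkbie (6.88 and 5.97), an IkB gene, and at Bcl3 (8.89 and 4.55), which encodes a nuclear IkB protein. The third, Nfkbib, had it 49404 bp away. Rel had the locus only at 0 h of that group (6.63 and 8.29). Among kinases and adaptors, 3 of 18 had a locus only at 6 h (Traf1, with 3 such loci, Myd88 and Irak2), 2 had one only at 0 h (Tab1 and Chuk) and 13 had one in all 4 libraries. Counted from the strongest peak, the nearest 6 h-only locus of Traf1 stood at 97.5% and 43.1% of the 6 h lists. That of Myd88 stood at 86% and 99.7%, and that of Irak2 at 34.6% and 64.5%.

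Of the interleukin-6 family, 5 of 11 had a locus only at 6 h, among them Il6ra, a receptor gene with 3 such loci (10.3 and 8.56 for the one inside the gene), and Clcf1, a ligand gene with 2 (6.62 and 6.28 for the nearest). Il6st, the gene of the shared receptor chain gp130, had 1, and so did Stat3, which also had 1 only at 0 h. Of the interleukin-1 and tumour necrosis factor genes, 3 of 11 had a locus only at 6 h (Il1rl2, Tnf and Il1rl1), and 2 had one in all 4 libraries. The locus of Tnf only at 6 h lay 45236 bp away. Counted from the strongest peak, it stood at 93.3% and 98.3% of the 6 h lists, among their weakest. Of the chemokine genes, 3 of 9 had a locus only at 6 h (Cxcl5, Cxcl2 and Cxcl3), and the locus next to Cxcl5 (9.87 and 10) also counted for Cxcl3. None of these 9 chemokine genes had a GR or an H3K27ac peak over the gene itself. Cxcl1, which is not among the 9, had both, the GR peak in 1 library. The share of all genes with such a peak over the gene was not computed.

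**Figure D4:**
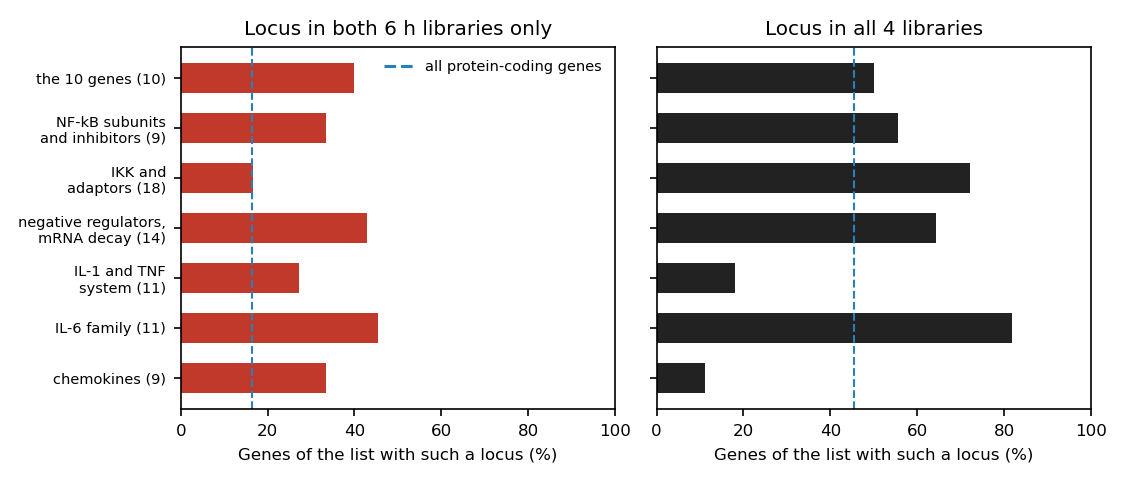
Share of the genes of each list (number of genes in brackets) with a locus only at 6 h (left) and with a locus in all 4 libraries (right), in percent, with the share of all protein-coding genes as a dashed line at 16.5% and 45.5%. Lists hold 9 to 18 genes, so 1 gene moves a bar by several percentage points.

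The genes of the wider list most like each of the 10 were taken by the Euclidean distance between numbers of peaks in the window over the 5 lists, as log2 of the number plus 1. Relb was nearest to Rela (0.29), Traf1 to Lif (0.415), Il18 to Il11 (0.525), Il11ra1 to Nfkbia (0.616), Il1rap to Tnfaip3 (1), Tsc22d3 to Il1r1 (1.02) and Tnf to Zfp36 (1.04). Cxcl2 had the same numbers as Cxcl1 (0), which it adjoins. Il1b and Il1rn were nearest to both Nfkb1 (0, with no GR peak and 4 H3K27ac peaks each) and Il1r2 (1.05).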

How the data were processed

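Reads were aligned with Bowtie2 2.4.5 to mm10 and peaks were called with MACS2, per the submitters' processing notes. The 4 deposited GR lists give, for each peak, a summit, a score, the fold enrichment (ratio) and −log10 of p and q, and the weakest −log10 p-value was 9 to 9.1. The deposited H3K27ac list gives positions with no score. For depth and the control used in calling, the sources used here give nothing. These values are the authors' and rank peaks within 1 list only.

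Unplaced contigs were dropped, peaks sharing at least 1 bp were joined as loci, and loci were assigned to a gene within its span and 50 kb (NCBI RefSeq, GRCm38.p6, with mm10 coordinates). The nearest gene, start windows and motifs came from the same tables, and 9 of the 10 genes matched a start window. Percentages over all protein-coding genes or loci are descriptions. Libraries were compared with exact permutation tests. All 10 members are named, and in the wider lists the up to 4 genes with the nearest locus only at 6 h or only at 0 h. Members and lists were chosen with earlier results of these data known. The calculation (Python 3.11.15) was tested on simulated data. The 4 samples without a list, which were further 6 h GR libraries labelled PRWT and PRKO and pooled inputs, were not analysed here.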

Additional observations from a re-analysis of the deposited data

How the results depend on the processing

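Of 91 recomputed values of the summary results, 75 stayed within 1.5 times (counts), within the interval (share) or on the same side of 0 (difference), 16 moved and 0 changed direction. With a window of 10 kb, 20 loci were left, 4 only at 6 h and 7 in all 4 libraries. With 100 kb, 20 were in all 4. With loci whose nearest gene was a member, the numbers were 19, 4 and 5. With the stronger 50% of each list they were 24, 5 and 7, and 3 members kept a locus in all 4 libraries. Smaller windows and lists give fewer loci by construction. Merging across 500 bp left 0 loci only at 0 h. With 1 library left out, which drops a condition of these classes, loci only at 6 h numbered 9 to 19 (19 without the second 6 h library) and loci only at 0 h 1 to 4 (4 without the first 6 h library). The total ranged from 33 to 41, loci in all remaining libraries from 13 to 16, members with a locus only at 6 h from 4 to 6, the H3K27ac share from 70% to 75.8% and the difference in peaks from 3.5 to 15.5. With replicate number as a block the difference in peaks stayed 9.5 (exact sign-flip p = 0.5, the smallest possible). Nothing in the labels pairs the numbers, and deviations of equal numbers correlated at 0.03 over 5012 loci. For single genes, 53 of 330 values moved. Unknown depth limits every absence of a peak.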

Other observations

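Some GR summits lay in short breaks of the acetylated chromatin. Of the 105 peaks near the 10 genes, 8 had their summit in a gap of under 500 bp between neighbouring H3K27ac peaks, with gaps of 253 to 386 bp. They were the inner site of Nfkbia in all 4 libraries, the start of Il1r2, a peak inside Zfp36, a peak over Med29 and Paf1, and a peak beside Kmt5c. Over the whole lists such a summit was found for 3.92% and 4.21% of peaks at 0 h, and at 6 h for 3.31% and 2.28%. The limit of 500 bp was chosen after the peaks had been seen.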
